A study of Mus musculus with 2 samples.

Results

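The 29986 regions described here are EP300 peaks that stood just below the reproducible set in the fetal liver. They were selected on the authors' pooled peak list of 300000 entries, ranked by the peak signal. Ranks 17056 to 50000 were kept, which starts 1 rank below the number of peaks in the authors' optimal list (17055). The optimal and conservative lists hold the peaks that passed the irreproducible discovery rate (IDR), a measure of how well the ranks of peaks agree between replicates. Of the 32945 ranked peaks, 2940 overlapped a peak of either list by at least 1 base and were left out, as were 19 on unplaced or unlocalized contigs. The members therefore number 29986 of 300000 pooled peaks, on the 19 autosomes and X. Because pooled signal and the IDR lists chose the members, their signal, their rank and their presence in the libraries are given as a description only.

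Chromatin of B6NCrl mouse embryo liver at 14.5 days, from both sexes pooled, was immunoprecipitated for EP300 and sequenced (ChIP-seq). The 2 libraries are numbered as biological replicates, form a single group and carry the same biosample label, of pulverized livers from several dissections. Nothing in the labels names separate animals for them, so the spread between them may be technical. With a single group, the comparisons below are between sets of peaks and have no test over samples.

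EP300 is a histone acetyltransferase that is brought to enhancers and promoters by transcription factors and acetylates histones there. The fetal liver at this age is the main site of red cell formation, and its erythroid cells rely on GATA1, TAL1 and KLF1. Hepatocytes, endothelial and stellate cells, macrophages and other blood lineages share the organ, and bulk tissue does not separate their signals: fewer cells of a type and less bound EP300 per cell cannot be told apart.

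The following 8 members show GATA motifs at or near summits. All 8 hold a GATA motif within 100 bp, as 44.4% of the members do, and they were chosen to, so they do not stand for members without one. Wdr26, Etl4, Runx1 and Ano6 name the gene closest to members whose weaker library still ranked the peak well. Il33 stands for the members at the top of the band, and Rag1, Cpa3 and Nr5a2 for genes of single cell types that had no reproducible peak nearby. Each line gives the summit with 100 bases on either side on GRCm38 (mm10), 5′ to 3′ on the plus strand, from the RefSeq assembly. Capitals mark the GATA motif, searched on both strands as AGATAA, where T was also allowed at the first position and G at the last. Read on the other strand, AGATAA is TTATCT.
Wdr26 (chr1:181209590-181209790, plus strand): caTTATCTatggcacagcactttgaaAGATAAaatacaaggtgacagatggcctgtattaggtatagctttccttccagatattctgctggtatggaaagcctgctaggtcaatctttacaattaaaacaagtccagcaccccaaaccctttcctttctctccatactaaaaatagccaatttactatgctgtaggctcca
Etl4 (chr2:20489178-20489378, plus strand): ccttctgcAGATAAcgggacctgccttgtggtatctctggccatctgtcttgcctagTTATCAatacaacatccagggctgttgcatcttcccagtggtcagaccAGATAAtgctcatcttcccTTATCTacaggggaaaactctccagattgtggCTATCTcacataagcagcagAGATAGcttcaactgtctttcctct
Runx1 (chr16:92718786-92718986, plus strand): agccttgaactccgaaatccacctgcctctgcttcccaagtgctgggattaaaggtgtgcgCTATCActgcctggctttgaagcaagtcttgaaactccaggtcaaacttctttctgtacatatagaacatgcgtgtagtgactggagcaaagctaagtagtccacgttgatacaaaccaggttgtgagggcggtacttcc
Ano6 (chr15:95925402-95925602, plus strand): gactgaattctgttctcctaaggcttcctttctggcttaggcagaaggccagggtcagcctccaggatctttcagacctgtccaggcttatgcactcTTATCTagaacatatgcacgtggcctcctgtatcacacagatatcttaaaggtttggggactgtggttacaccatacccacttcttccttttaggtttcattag
Il33 (chr19:29955575-29955775, plus strand): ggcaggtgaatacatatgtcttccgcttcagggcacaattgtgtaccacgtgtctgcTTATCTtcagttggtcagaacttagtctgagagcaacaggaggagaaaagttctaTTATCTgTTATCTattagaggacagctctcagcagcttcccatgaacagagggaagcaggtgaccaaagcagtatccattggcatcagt
Rag1 (chr2:101652405-101652605, plus strand): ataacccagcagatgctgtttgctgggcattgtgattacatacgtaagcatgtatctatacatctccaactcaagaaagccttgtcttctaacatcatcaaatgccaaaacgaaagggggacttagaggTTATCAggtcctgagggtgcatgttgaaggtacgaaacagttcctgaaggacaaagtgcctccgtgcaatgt
Cpa3 (chr3:20243949-20244149, plus strand): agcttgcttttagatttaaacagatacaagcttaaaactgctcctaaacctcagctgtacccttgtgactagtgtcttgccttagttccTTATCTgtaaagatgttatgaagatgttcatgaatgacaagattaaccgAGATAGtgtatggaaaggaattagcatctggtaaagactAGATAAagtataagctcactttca
Nr5a2 (chr1:136960526-136960726, plus strand): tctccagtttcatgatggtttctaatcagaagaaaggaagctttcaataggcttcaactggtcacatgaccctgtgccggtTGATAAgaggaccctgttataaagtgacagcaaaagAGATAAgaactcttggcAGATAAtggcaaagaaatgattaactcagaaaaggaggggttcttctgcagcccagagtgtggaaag

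The GATA sites sat at different distances in these windows. The Ano6 window held a single site that covered the summit itself, from -3 to 2 bp. The Etl4 window held 6 sites, the closest from 5 to 10 bp, and the Nr5a2 window held 3 between -19 and 39 bp. In the Wdr26 window both sites lay away from the summit, the closer one from -74 to -69 bp. The Runx1 window held 1 site from -39 to -34 bp, and 40.8% of its bases were soft-masked as repeat sequence in the assembly.

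The members just inside and just outside the ranks differed little in signal, which is the peak caller's value and has no further unit. Signal was 17.252 at rank 17055 and 17.2508 at rank 17056, and 8.82952 at rank 50000 and 8.82947 at rank 50001. The first member, at rank 17060, had a signal of 17.245, and the median member had 10.1. The 17043 optimal peaks on the same chromosomes had a median of 38.5. All members were 340 bp wide in the deposited list. The label of the set held only in part. IDR peaks were not simply the top of the pooled list, since 1057 peaks ranked above the band overlapped none of them and 797 IDR peaks ranked below rank 50000. Within the band 2668 peaks were themselves IDR entries, of which 2660 lay on the 20 chromosomes used here, and they serve below as a comparison from the same ranks. They crowd the top of the band, with 1245 of 2660 between ranks 17056 and 20000 against 1656 of 29986 members, and had a median signal of 14.2. The other comparison sets were the optimal peaks and the next band, which holds the 32627 peaks of ranks 50001 to 82945 taken by the same overlap rule.

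Most members were found in 1 library and not in both. A summit of both library lists lay within 100 bp of 8600 members, or 28.7% (95% Wilson interval 28.2 to 29.2). Over all pooled peaks on these chromosomes the share was 9.69%. A further 9211 members (30.7%) had a summit of replicate 1 alone, 10157 (33.9%) of replicate 2 alone, and 2018 (6.73%) of neither. Both libraries therefore gave similar numbers of members of their own. Stretches of 100 bp on either side of the summits of a library list covered 2.21% of the genome in replicate 1 and 2.21% in replicate 2. The IDR peaks of the same ranks had summits of both libraries in 38.7%, but fewer than the members within most rank bins. The shares in members and in these IDR peaks were 55.4% and 55.9% between ranks 17056 and 20000, 47.3% and 34.5% up to rank 25000, 35.2% and 16.4% up to rank 30000, and 14.6% and 1.47% in the last bin. Both libraries had summits in 84.3% of optimal peaks and in 7.64% of the next band. Since the pooled list was made from both libraries, none of these shares is independent of the ranking.

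**Figure D1:**
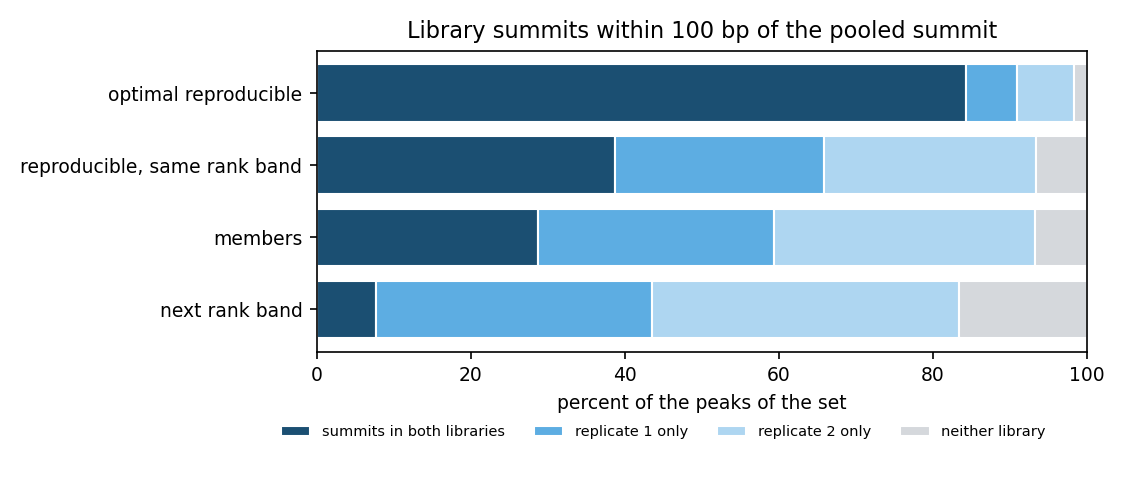
Percent of peaks (x axis) in each set (rows) whose pooled summit had a library summit within 100 bp, split into both libraries, replicate 1 only, replicate 2 only and neither. Both libraries support 28.7% of members, between the 84.3% of optimal reproducible peaks and the 7.64% of the next rank band.

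The members found in both libraries were rarely strong in both. Only 709 members (2.36%) had a summit among the 50000 highest of each library, against 78.6% of optimal peaks. Among the 8600 supported members the median rank was 48128.5 in the better library and 155916 in the worse. The worse rank was a median of 2.46 times the better one, compared with 1.33 times for the optimal peaks. Members seen in replicate 1 alone had a median rank of 37600 there, and those seen in replicate 2 alone a median of 38021. Across the 8600 supported members Spearman's rho between the signals of the libraries was -0.11, and across 14360 supported optimal peaks it was 0.85. The first value describes peaks that were kept within a narrow range of pooled signal.

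The highest-ranked members with summits of both libraries were mixed in location and in library rank. Of the 12 highest, 6 lay in introns, 4 at promoters and 2 between genes, and 7 held a GATA motif. In 8 the weaker library placed the peak below rank 50000. This was not particular to the top, since only 709 of all 8600 supported members were among the 50000 highest of each library. Between ranks 17056 and 20000, 58.2% of members held a GATA motif and 30.1% were at promoters. The intronic member of Il33, an alarmin cytokine, had signals of 8.44 in replicate 1 and 6.17 in replicate 2. The promoter members of Araf, a RAF kinase, and of Chd9, a chromatin remodeller, were stronger in replicate 2, with 6.08 and 10.7, and 4.35 and 10.1. The member of Trip6 was the most uneven of the 12, at ranks 222981 and 12718.

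The 12 members with the best rank in their weaker library lay mostly in introns. Of these 12 members, 9 lay in introns, 2 in intergenic sequence and 1 at a promoter, and 10 held a GATA motif. Over all members 45.9% lay in introns and 44.4% held a GATA motif. The wider group of 709 members among the 50000 highest of each library was at promoters in 22.3%, against 16.2% of all members. The highest was in an intron of E030030I06Rik on chromosome 10, with a signal of 11.2 at rank 14416 in replicate 1 and 8.76 at rank 20587 in replicate 2. The intronic member of Wdr26, a subunit of a ubiquitin ligase, had signals of 13.1 and 7.79 at ranks 12355 and 25312. The members at Klf6, Runx1, Ano6, Phka2 and Etl4 were more even between the libraries.

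A member 56704 bp from Klf6, a zinc finger transcription factor, ranked 27001 in replicate 1 and 27386 in replicate 2. The member in Runx1, the transcription factor on which definitive blood stem cells depend, had signals of 7.18 and 7.45 at ranks 27108 and 28280. Runx1 also had a reproducible summit 2959 bp from that member. The intronic members of Ano6, a phospholipid scramblase, and Phka2, a liver subunit of phosphorylase kinase, ranked 26763 and 28001, and 28330 and 25987. In Etl4 the member with 6 GATA sites had signals of 7.38 and 7.43 at ranks 25607 and 28430, and the nearest reproducible summit was 43495 bp away. These 6 sites were the most among the 12.

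The properties of members changed gradually along the ranking. Between ranks 17056 and 20000, 55.4% of 1656 members had summits of both libraries, and between ranks 45001 and 50000, 14.6% of 4909 had. The promoter share was 30.1% in the first and 11.2% in the second, and the GATA share 58.2% and 41.2%. The share in repeats went the other way, 6.76% and 11.9%. In the GATA share most of the decline was over by rank 30000, since the 4 bins below it lay between 41.1% and 42.3%. GATA motifs in the flanks of the same members were at 29.1% and 35.2%, so centre and flank came closer together from both sides.

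**Figure D2:**
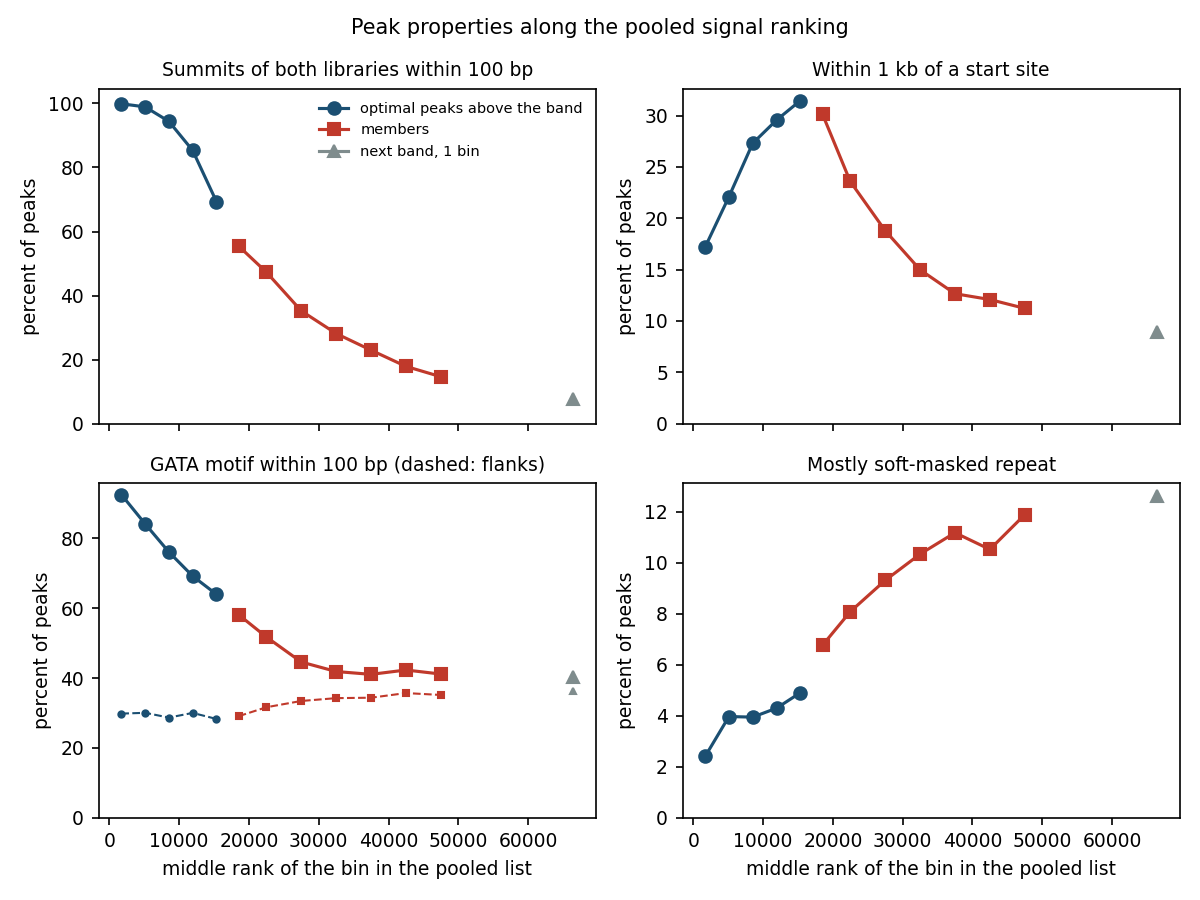
Percent of peaks (y axes) with each property against the middle rank of bins of the pooled list (x axes), for optimal peaks above the band, members and the next band. Dashed lines are GATA shares in flanks 400 to 500 bp from the summit; member shares for both libraries run from 55.4% down to 14.6%.

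Members were less often at promoters than the reproducible peaks. A start site of any annotated transcript lay within 1 kb of the summit in 4843 members, or 16.2% (15.7 to 16.6). The share was 26.2% among optimal peaks, a difference of -10.09 percentage points with a 95% Newcombe interval of -10.88 to -9.32. The IDR peaks of the same ranks had 36.8%, and the next band 8.88%. Between ranks 17056 and 20000 the promoter shares of members and these IDR peaks were 30.1% and 29.7%, and between ranks 25001 and 30000 they were 18.8% and 51.6%. Of the remaining members, 13751 (45.9%) lay in introns, 10005 (33.4%) between genes, 302 (1.01%) in coding exons and 1085 (3.62%) in the other exonic parts of genes. The intron share was 44.2% in the optimal peaks and 45.8% in the next band, but 36.2% in the IDR peaks of the same ranks. These intervals cover counting error over peaks, which are not independent replicates.

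Base composition also differed between the sets. The median GC content within 100 bp of the summit was 43.8% in members, 48.3% in optimal peaks and 41.3% in the next band. In 2338 members (7.80%) the observed frequency of the dinucleotide CpG was at least 0.6 of that given by base composition, a mark of CpG islands. The share was 16.4% in optimal peaks and 24.7% in IDR peaks of the same ranks. Most bases of the window were soft-masked as repeat in 3022 members (10.1%), against 4.14% of optimal peaks and 12.6% of the next band.

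Members lay closer to reproducible peaks than the next band did. The nearest IDR summit was closer than 1 kb in 5.95% of members, from 1 to 5 kb in 15.9%, and over 100 kb away in 8620 members or 28.7%. The median distance was 29670 bp, and 72402 bp in the next band. The 1783 members within 1 kb were at promoters in 34.7%, and the 8620 most remote ones in 7.90%. Support by both libraries hardly varied with this distance, from 30.1% within 1 kb to 27.7% beyond 100 kb. The GATA share also varied little, 42.1% and 44.6%, but the flank share was 30.9% near and 39.6% far from reproducible summits, where median GC content was 46.8% and 40.3%. The contrast between centre and flank was therefore smaller for the remote members.

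The sequence under the summit took no part in the choice of members. A GATA motif lay within 100 bp of the summit in 13319 members, or 44.4% (43.9 to 45.0), and in 33.9% (33.4 to 34.4) of the pairs of flanks at 400 to 500 bp, which together are as long as the centre. Over all pooled peaks on these chromosomes the centre share was 42.5%, with 36.4% in the flanks. In optimal peaks the shares were 74.7% and 29.5%, in IDR peaks of the same ranks 48.5% and 29.4%, and in the next band 40.4% and 36.4%. Members exceeded the next band by 3.22 to 4.77 points (95% Newcombe interval). The pooled difference from the IDR peaks of the same ranks was -4.08 points (-6.06 to -2.10), but these peaks crowd the top of the band, and within rank bins the difference did not hold. The shares in members and in these peaks were 58.2% and 58.7% between ranks 17056 and 20000, 51.8% and 44.0% up to rank 25000, and 44.6% and 32.4% up to rank 30000. In the 4 later bins the member share was also the higher one, with only 68 to 172 IDR peaks per bin.

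GATA motifs in members were gathered at the summit. The motif count per 20 bp bin peaked at 7.84 per 100 members at the summit, and at 24.0 per 100 optimal peaks. Among members with a motif the median distance of the closest one was 33.5 bp, against 17.5 bp in optimal peaks and 39.5 bp in the next band. At least 2 separate GATA sites occurred in 4227 members (14.1%) and in 7.74% of flanks. An E-box, CANNTG, followed after 6 to 9 bases by GATAA or GATAG, the pairing known from complexes of TAL1 and GATA1, occurred in 732 members (2.44%) and in 1.10% of flanks. In optimal peaks this pairing reached 9.08%, and over all pooled peaks 2.03%. Its GATA part is often counted as a GATA motif as well.

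**Figure D3:**
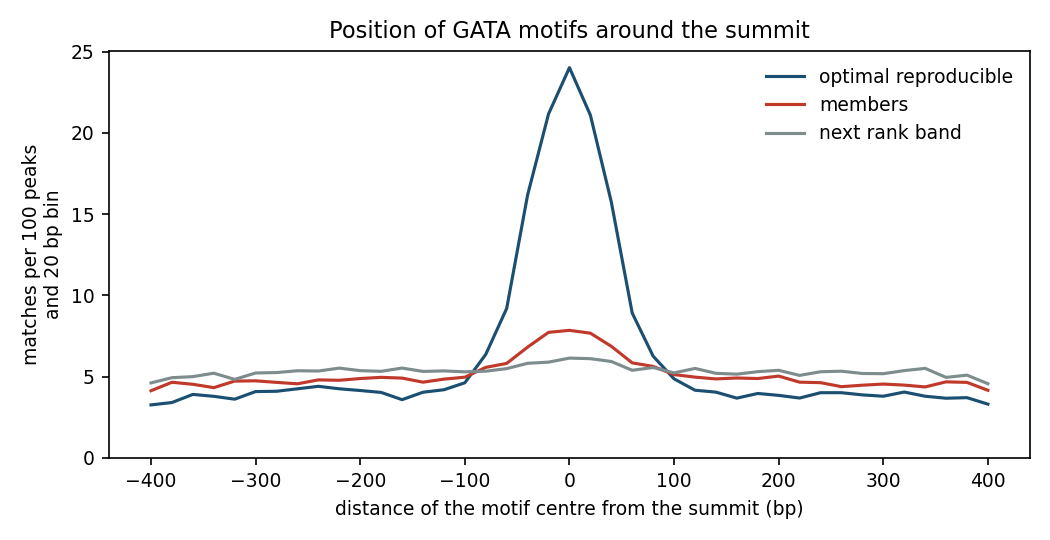
GATA motif matches per 100 peaks and 20 bp bin (y axis) against distance from the summit in bp (x axis) for optimal peaks, members and the next band. Members rise to 7.84 at the summit, optimal peaks to 24.0.

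The GATA share went with library support and with location. It was 48.3% (47.3 to 49.4) in members with summits of both libraries, 43.7% with replicate 1 alone, 42.7% with replicate 2 alone and 39.5% (37.4 to 41.7) with neither. The flank shares of these 4 groups lay between 33.3% and 34.4%. In the 709 members among the 50000 highest of each library, 60.4% (56.7 to 63.9) held the motif, with 28.9% in the flanks. These members also ranked higher in the pooled list, with a median rank of 20530, so support and rank cannot be told apart here. At promoters 31.3% of members held a GATA motif and elsewhere 47.0%, with flanks of 25.2% and 35.6%.

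Motifs of other blood factors were present at the summits of members, in small numbers. The PU.1 motif GAGGAAGT, bound by the factor that directs myeloid and B cells, lay at 1.95% of member summits (584) and in 1.11% of flanks. Its share in optimal peaks was lower, 1.53%, a difference of 0.42 points (0.17 to 0.65). The C/EBP site, used by factors of granulocytes and hepatocytes, was searched as 5 words: TTGCGCAA, TTGCACAA, TTGCATAA, TTGCCAAT and TTGTGCAA. The last is TTGCACAA read on the other strand. One of these words lay at 2.42% of member summits (726), in 1.78% of flanks and at 1.88% of optimal summits, a difference of 0.54 points (0.26 to 0.80). Members differed from the next band by 0.46 points (0.26 to 0.67) for PU.1 and by 0.17 (-0.06 to 0.41) for C/EBP. For the AP-1 and NFE2 core, TGACTCA or, on the other strand, TGAGTCA, the shares were 4.37% at member summits, 3.13% in flanks and 5.91% in optimal peaks. The RUNX motif TGTGGTT was at 5.84% of summits and in 4.76% of flanks, and the KLF1 motif CCACACCC at 1.80% and in 1.27%. Over all pooled peaks the summit shares were 1.37% for PU.1, 2.28% for C/EBP, 3.80% for AP-1 and NFE2, 5.16% for RUNX and 1.42% for KLF1.

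Motifs of hepatocyte factors were counted in the same way. The FOXA motif, TATTTAC or TGTTTAC, occurred at 6.83% of member summits and in 6.85% of flanks, so no difference was detectable. The member share of FOXA differed from the optimal share by 1.69 points (1.25 to 2.13) and from the next band by -1.07 (-1.48 to -0.66). For HNF4A, searched as CAAAGTCC, the shares were 0.95% (0.85 to 1.07) and 0.77%, and the member and optimal shares differed by -0.02 points (-0.21 to 0.16). HNF1 motifs were found at 79 member summits (0.26%) and in 0.22% of flanks. Over all pooled peaks the summit shares of FOXA, HNF4A and HNF1 were 7.51%, 0.87% and 0.29%. The lack of a match says nothing of whether these factors were at a site.

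The CTCF motif had the highest ratio of centre to flank in members. This motif, of the factor at chromatin loop anchors, lay at 284 member summits (0.95%) and in 0.19% of flanks, a ratio of 4.98, and a ratio of 5.05 in optimal peaks. Over all pooled peaks 0.38% of summits held it. The ETS motif CCGGAAG was at 5.55% of promoter member summits and in 2.31% of their flanks. The GC box GGGCGG occurred at 19.8% of promoter members and in 17.9% of their flanks. Of the 23 motifs searched, the widest gaps in this ratio between members and optimal peaks were those of 2 or more GATA sites, 1.82 against 7.16, and of the E-box with GATA, 2.21 against 9.38.

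**Figure D4:**
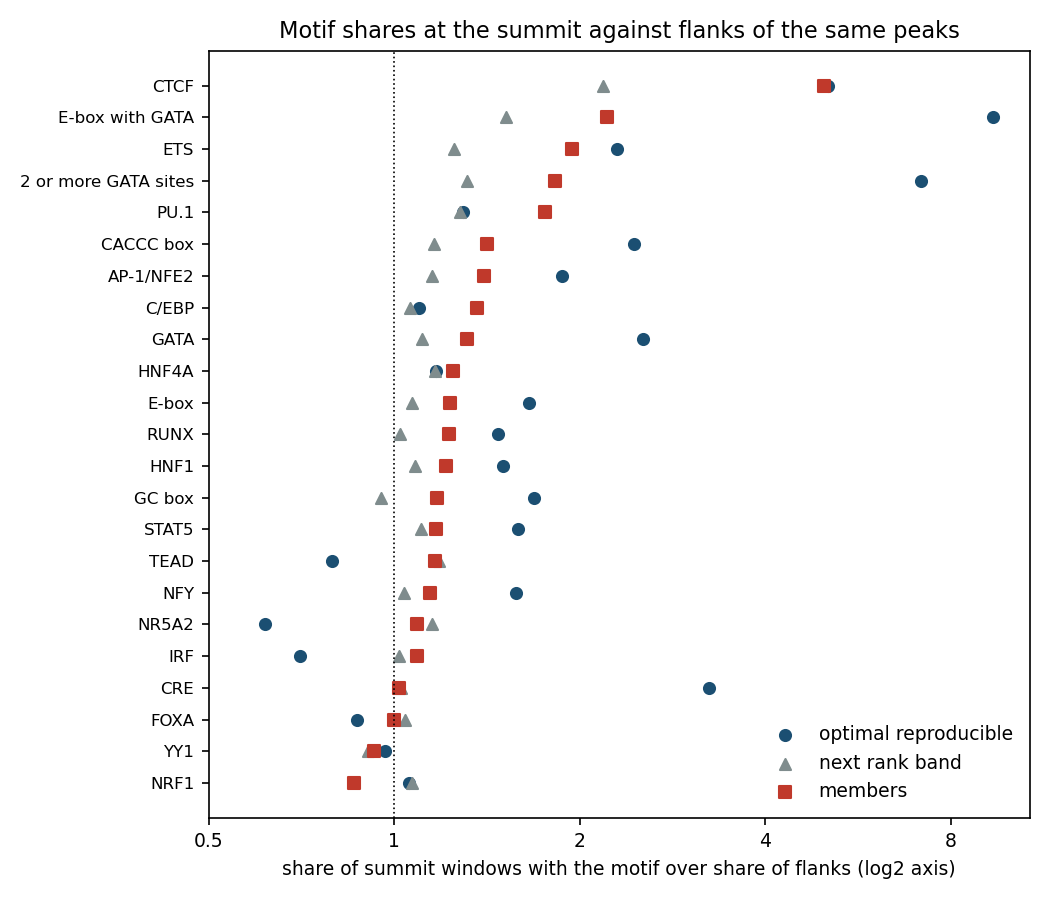
Ratio of the share of summit windows with a motif to the share of flanks (x axis, log2 scale) for 23 motifs (rows) in members, optimal reproducible peaks and the next rank band; the dotted line marks equal shares. CTCF has the highest ratio in members (4.98), and FOXA lies at 1.00.

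Members reached far more genes than can be described one by one. A member summit lay within 20 kb of a start site of 11983 of 21755 protein-coding genes, a background of 55.1%. In 4998 genes, 23.0% of all, there was a member and no IDR summit in that window, and in 1904 of these a member was found in both libraries. Counted among the 12811 genes with no IDR summit, the share with a member was 39.0%. With a window of 5 kb the 4998 genes became 3847, and with 50 kb they became 4915. Directly at start sites, within 1 kb, 3645 coding genes had a member, of which 2565 had no IDR summit at that distance. Each list of marker genes was read against these shares.

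Within 20 kb the genes of the main red cell lists all had reproducible peaks, and members were added to them. All 21 erythroid transcription factors and all 35 genes of the red cell membrane, globins and receptors had an IDR summit. None therefore had a member only at this window. With a window of 5 kb each of these lists had 1 gene with a member only. The transcription factors nevertheless had members in all 21 cases, with a median of 7 members per gene against 1 over all coding genes. Most coding genes with an IDR summit also had a member, 6985 of 8944. Gfi1b, a repressor needed for red cells and platelets, had 10 members beside 12 IDR summits. Tal1 and Zfpm1, which encodes the GATA1 partner FOG1, had 9 members each, and Klf1 had 5. The strongest member of each of these genes lay between 460 bp (Zfpm1) and 5724 bp (Klf1) from an IDR summit.

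The strongest Zfpm1 member, at rank 18125, was 460 bp from an IDR summit and had signals of 6.71 in replicate 1 and 9.06 in replicate 2. That of Tal1, intronic and at rank 21806, was 2495 bp from one, with 7.73 and 6.61. Gata1 had a single member, 128 bp from a start site, with a signal of 5.99 in replicate 1 and no summit in replicate 2. Among the globin genes Hba-a1 had 5 members and Hbb-bs none, while both had many reproducible summits, 14 and 16. In the heme and mitochondrial iron list 1 of 15 genes had a member only: Flvcr1, a heme exporter. Its strongest member, with library signals of 4.56 and 8.75, was intergenic, 19343 bp from Flvcr1 and 4332 bp from Tatdn3. An IDR summit lay 9833 bp from that member, and with a window of 50 kb the count of this list was 0.

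The 8 coding genes with the most members were Mbnl1, Ank1, Epb41, Sgms1, Cd47, Picalm, Pde4d and Tmcc2, with 15 to 24 each. All 8 also had 11 to 22 IDR summits in the window. Mbnl1, a regulator of RNA splicing, had 24 members, 11 of them in both libraries. Ank1 and Epb41, which encode ankyrin and protein 4.1 of the red cell skeleton, had 21 and 20. Cd47, the surface signal that protects red cells from phagocytosis, had 19. The members of such genes were part of dense groups of peaks, and genes with several start sites have wider windows.

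Many hepatocyte genes had a member and no reproducible peak. Of 24 hepatocyte transcription factors, 7 had an IDR summit and 12 others a member only. Put against the 17 without an IDR summit, this was 70.6% (46.9 to 86.7), above the 39.0% of all coding genes, though on few genes. With a window of 50 kb in place of 20 kb the 12 became 7. With 44 secreted proteins and 37 enzymes and transporters included, 105 hepatocyte genes gave 32 with a member only, which was 53.3% (40.9 to 65.4) of the 60 without an IDR summit. Of the 32, 15 had a member in both libraries.

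Single hepatocyte sites differed widely in how the libraries saw them. At Nr5a2, a nuclear receptor of bile acid and lipid metabolism, the member lay 178 bp from the start site, held 3 GATA sites and had signals of 7.41 in replicate 1 and 5.72 in replicate 2. At Ppara, the receptor that governs fatty acid oxidation, a promoter member had a signal of 8.11 in replicate 1 and no summit in replicate 2. At Vtn, which encodes vitronectin, signals were 11.2 and 3.61. Support at Vtn therefore rested on a rank of 279810 in replicate 2, near the end of its list.

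The member closest to Nr1h3, the oxysterol receptor LXRα, was at the promoter of its neighbour Madd, 7718 bp from Nr1h3, and was seen in replicate 1 alone with a signal of 12.3. Abcc2, a bile canalicular transporter, had 5 members and no reproducible summit within 20 kb. Its strongest had weak signals in both libraries, 4.31 and 5.37. Igf2, the fetal growth factor, had a promoter member with 9.24 in replicate 2 alone, and Apoa5 one that lay at the promoter of Bud13 with a summit in neither library.

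Hnf4a, the master factor of hepatocytes, had a reproducible summit of signal 14.7 and 2 members. The stronger member, at chr2:163552391-163552730 in a coding exon 2478 bp from a start site, had signals of 6.73 and 6.37 and thus similar support in both libraries. Cebpa had no reproducible summit and 1 member at rank 47177, 16815 bp from the start site, found in replicate 2 alone. Alb and Afp, the neighbouring genes of albumin and alpha-fetoprotein, had 9 and 10 members, 2 of them in both libraries for each gene. Their strongest members had signals of 6.69 and 5.15 for Alb and 9.59 and 4.97 for Afp, and lay 957 and 630 bp from reproducible summits. Their windows overlap, so members are counted for both genes.

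Granulocyte and mast cell genes also often had a member and no reproducible peak within 20 kb. Of 21 granulocyte and mast cell genes 5 had an IDR summit and 11 others a member only, 68.8% (44.4 to 85.8) of the 16 without. Some of the 11 shared their strongest member with a neighbour in the list, and for others it lay closer to a gene outside the list. The interval nevertheless counts them as separate genes. With a window of 5 kb the 11 became 5. Cpa3, the carboxypeptidase of mast cells, had its strongest member 1868 bp from the start site with 3 GATA sites and a signal of 12.2 in replicate 1 alone. Elane, neutrophil elastase, had 2 members, 1 of them in both libraries. Its strongest member was also that of the neighbouring Prtn3, lay in an intron of Prtn3 and was found in replicate 2 alone, with 12.3. Of these 11 genes, 3 had any member in both libraries, Cpa3 and Elane among them.

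In the macrophage list 5 of 17 genes without an IDR summit had a member, 29.4% (13.3 to 53.1), and in none was it found in both libraries. Vcam1, an adhesion molecule of the macrophages at erythroblastic islands, had a member 38 bp from its start site with a signal of 8.08 in replicate 1 alone. Of the lymphoid genes without an IDR summit, 7 of 15 had a member, 46.7% (24.8 to 69.9). Rag1, the recombinase of antigen receptor genes, had one 3004 bp from the start site with signals of 10.6 and 6.11. Megakaryocyte and platelet genes gave 6 of 10, 60.0% (31.3 to 83.2). Among them was Thbs1, which encodes thrombospondin, with a promoter member (4.17 and 9.05). Stem and progenitor genes gave 4 of 11, 36.4% (15.2 to 64.6), among them Hoxb4. The Hoxb4 member, with 6.14 and 7.16, lay in an intron of the neighbouring Hoxb3, 6172 bp from Hoxb4. The intervals of all these lists include the 39.0% of all coding genes. With a window of 5 kb the counts of member-only genes were 2 for the macrophage list, 2 for the lymphoid list, 4 for the megakaryocyte list and 2 for the stem cell list.

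Genes of endothelial and stellate cells had members alone at shares whose intervals include the 39.0% of all coding genes. Liver endothelial genes gave 8 of 15 without an IDR summit, 53.3% (30.1 to 75.2). Stab2, a scavenger receptor of sinusoidal endothelium, led them. With a window of 5 kb the 8 became 5. The Stab2 member, at chr10:86990687-86991026, was 17155 bp from the start site, with 3 GATA sites, signals of 6.83 and 8.97 and no IDR summit for 285031 bp. Stellate and mesenchymal genes gave 9 of 21, 42.9% (24.5 to 63.5), 6 of them with a member in both libraries. At Wt1, a factor of the liver mesothelium and stellate cells, signals were 5.75 and 5.36. Bile duct and hepatoblast genes gave 3 of 14, 21.4% (7.57 to 47.6). This was the lowest share of the liver lists with more than 10 genes lacking an IDR summit.

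Most genes of the cell cycle, ribosomal protein and coactivator lists had reproducible peaks. None of the 28 cell cycle genes had a member only, and 27 had an IDR summit. With a window of 5 kb, 3 of them had a member only. Of 29 ribosomal protein genes 4 had a member only, 13.8% of the list but 66.7% of the 6 without an IDR summit, among them Rplp0 with 6 members and a promoter member of signal 10.1 in replicate 1 alone. All 4 coactivator genes without an IDR summit, of 20 in the list, had a member. The gene of EP300 itself had reproducible summits and 1 member, 142 bp from its start site at rank 19475, with a signal of 10.9 in replicate 1 and no summit in replicate 2. For Crebbp, its paralog, the strongest of 3 members was a promoter member with 16.3 in replicate 1 alone.

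Lists from outside the liver showed how often a member appears near genes that these cells are not known to use. Of 52 neuronal, epidermal and muscle genes without an IDR summit, 17 had a member, 32.7% (21.5 to 46.2), which includes the 39.0% of all coding genes. The neuronal list alone gave 9 of 19, a share of 47.4%, the epidermal list 7 of 19 and the muscle list 1 of 14, 7.14% (1.27 to 31.5). With a window of 5 kb the neuronal count fell from 9 to 3 and the epidermal count from 7 to 4. Over all coding genes it fell from 4998 to 3847. Hepatocyte transcription factors fell from 12 to 9, secreted proteins went from 12 to 17, and enzymes and transporters from 8 to 12. With a window of 50 kb the neuronal and epidermal counts were 8 and 7, and those of the hepatocyte lists 7, 10 and 11. These are counts and not shares of the genes without an IDR summit. Th, which encodes tyrosine hydroxylase, had a member with 3 GATA sites and signals of 6.61 and 6.55. The best members of Trp63 and Gad1 had signals of 3.70 and 3.50, and 3.38 and 4.76. Members thus occurred near such genes as well.

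**Figure D5:**
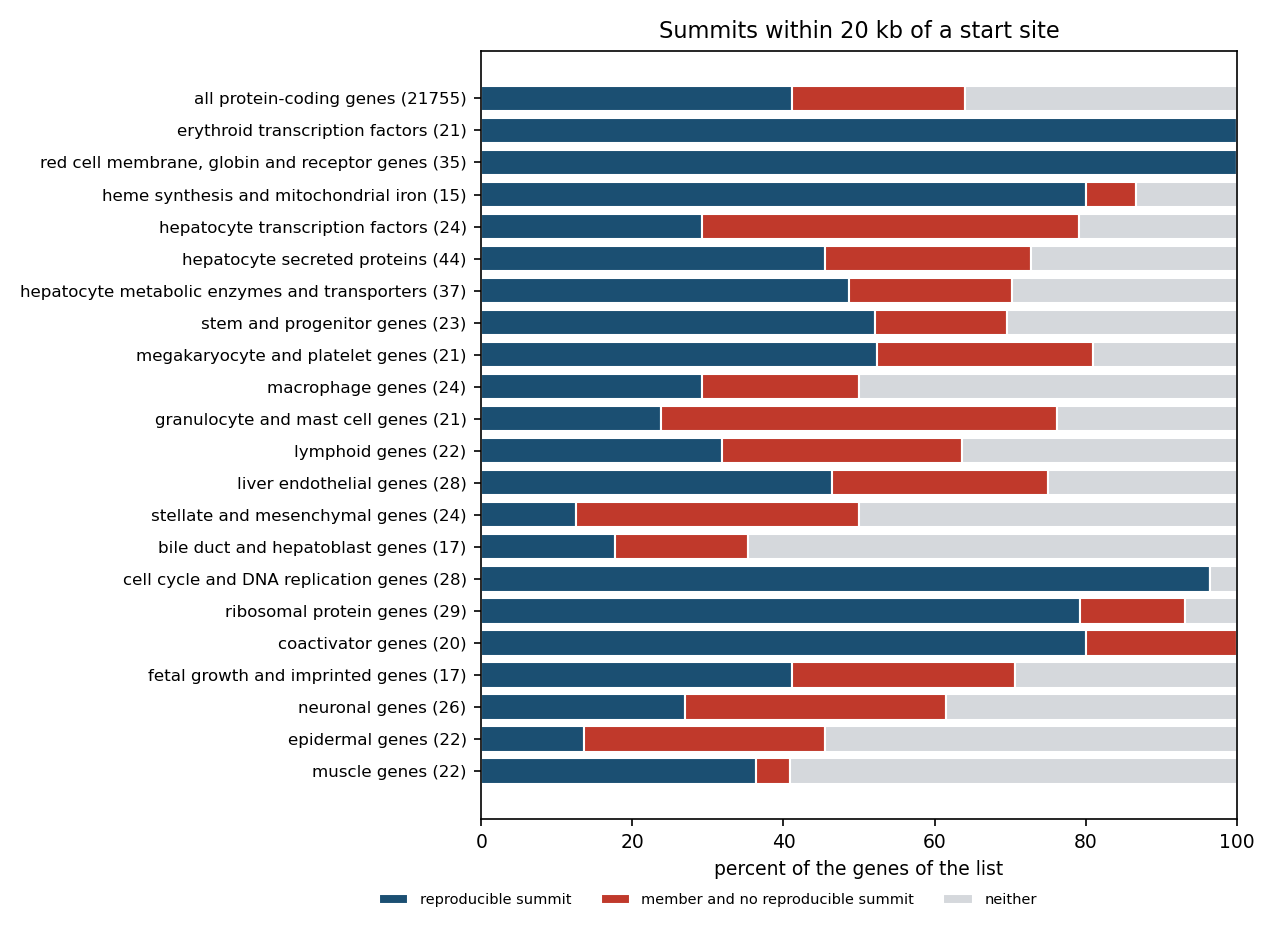
Percent of genes (x axis) in all protein-coding genes and in each of 21 lists (rows, number of genes in brackets) with a reproducible summit, with a member and no reproducible summit, or with neither within 20 kb of a start site. The member-only share is 23.0% over all coding genes, 12 of 24 for hepatocyte transcription factors and 0 of 21 for erythroid ones.

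Requiring a member in both libraries lowered these counts. A member found in both libraries and no IDR summit was seen in 7 of 17 hepatocyte transcription factors (41.2%) and in 6 of 21 stellate genes (28.6%). The share was 14.9% over all coding genes. Among the other hepatocyte lists it was 6 of 24 for secreted proteins and 10.5% for enzymes and transporters, the same as for neuronal genes. It was 33.3% for endothelial genes, 40.0% for megakaryocyte genes, 18.8% for granulocyte and mast cell genes, 18.2% for stem and progenitor genes, 13.3% for lymphoid genes and 7.14% for bile duct genes. None of 17 macrophage genes and none of 14 muscle genes had such a member, and 5.26% of epidermal genes did. Ribosomal protein genes stood at 33.3% and coactivator genes at 3 of 4. No difference between lists was tested, since the genes were chosen with these data known and neighbouring genes share members.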

How the data were processed

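The authors deposited 5 peak lists on assembly mm10: 1 for each of 2 libraries, with 300000 entries each, 1 pooled list made from both libraries per the deposited file listings, and the optimal and conservative IDR lists. The deposited peak signal is a value set by the peak caller, 0 or above, and its scale differs between lists. Which aligner, peak caller and IDR threshold were used is not given in the sources used here. Read totals were not used, so depth is unknown.

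Peaks were ranked by signal, and 7614 members share their signal with another, so that their order within a tie is that of the file. Summits were placed on GENCODE vM21 with python 3.11.15, pandas 2.3.3 and numpy 2.4.6; promoters reached 1 kb and gene windows 20 kb from a start site. Of 513 entries in 21 gene lists, 509 were found among 21755 protein-coding genes. Sequence and soft-masking came from the RefSeq GRCm38 assembly; 23 motifs were searched on both strands. The functions were tested on simulated data.

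Wilson and Newcombe intervals (95%) cover counting error only. Peaks and genes are not replicates, and no test was made over the 2 libraries. The members, gene lists and motifs were chosen with earlier results of these data known. Named genes are those nearest to the 12 highest members with both libraries and to the 12 members with the best weaker-library rank, the 8 genes with most members, up to 3 per list with a member only, and a fixed set of 17. A gene that this rule took is not reported here. Madd, Bud13, Prtn3, Tatdn3 and Hoxb3 are named to say where a peak lies.

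Alternatives were other distances for support, promoters and genes, start sites of coding genes alone, parts of the band, members in both libraries, members over 500 bp from every IDR peak, and each library alone.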

Additional observations from a re-analysis of the deposited data

Results flagged for a closer look

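The rank band also held 19 peaks on unplaced or unlocalized contigs that overlapped no IDR peak and that the comparisons above do not use. They lay on 11 contigs, had signals of 8.98 to 16.6, and 5 of them had summits of both libraries within 100 bp. They were singled out because they carry signal in sequence outside the main measurement.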

How the results depend on the processing

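Every choice tried moved the share of members with both libraries, reported as 28.7%. It was 8.62% for summits within 25 bp, 17.1% within 50 bp, 41.0% within 200 bp, and 2.36% among the 50000 highest peaks of each library. Down to rank 30000 it was 43.2% and below it 20.8%. The promoter share of 16.2% became 10.7% at 500 bp, 27.2% at 2.5 kb and 13.5% with start sites of coding genes alone. It was 22.5% down to rank 30000, 12.7% below it, 14.9% for members in both libraries and 15.6% over 500 bp from every IDR peak. The GATA share of 44.4% became 28.5% within 50 bp of the summit, 49.6% down to rank 30000, 41.6% below it and 48.3% for members in both libraries. Of 4998 coding genes with a member and no IDR summit, 1904 were left with members in both libraries, and 2325 down to rank 30000. Of 114 listed genes of that kind, 47 were left with members in both libraries. The counts of the 21 single lists stayed within 1.5 times in 44 of 84 comparisons with another window or with both libraries.

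The same band taken on each library alone, leaving out the other, gave promoter shares of 14.0% to 14.2%, GATA shares of 40.0% to 40.1% and 5101 to 5278 genes. No paired analysis was possible because the libraries form a single group. The depth of the libraries is unknown, so a summit missing from a list is not evidence of no binding, and small lists leave wide intervals.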

Other observations

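Peaks on the other sides of the rank limits had mixed properties. The 1055 peaks on the chromosomes used here that ranked above the band and overlapped no IDR peak had summits of both libraries in 64.4%, a GATA motif in 55.5% and a promoter location in 38.7%. The 796 IDR peaks that ranked below rank 50000 on these chromosomes had summits of both libraries in 3.39%, a GATA motif in 34.2% with 27.6% in the flanks, and a promoter location in 44.6%. Of the IDR peaks on these chromosomes, 466 ranked below 100000 in the pooled list.

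The members of the 20 chromosomes numbered between 531 on X and 2301 on chromosome 2. Set against the optimal peaks, there were 1.44 members per optimal peak on chromosome 11 and 2.23 on chromosome 16.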
